A study of Homo sapiens with 5 samples.

Results

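Electroporation opens the membrane of melanoma cells to cisplatin, and the measurements below ask what the electric pulses added to the transcript response to the drug. The tested group was SK-MEL28 cells given cisplatin with electroporation (2 arrays), and its comparison group was SK-MEL28 cells given cisplatin alone (3 arrays). SK-MEL28 is an established human melanoma line, so both groups represent 1 cell line grown in a dish. The labels describe a train of 8 pulses, each 100 µs long, delivered with a frequency of 1 Hz and a field of 1300 V/cm. The sources used here state neither the cisplatin dose nor the time between treatment and RNA isolation. On every array the RNA of treated cells carried the dye Cy5 and RNA of untreated SK-MEL28 cells carried Cy3. Whether 1 preparation of untreated RNA served all arrays is not stated in the sources used here. The quantity compared is the log2 ratio of treated over untreated cells, averaged over electroporation arrays minus averaged over cisplatin arrays. A dye preference that is constant for a probe cancels in this difference. No sample of electroporation without cisplatin was analysed here, so an effect of the pulses themselves and an effect of the drug they let in cannot be told apart.

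Members were the probes whose spots stood more than 2 standard deviations above their local background in at least 1 channel on all 5 arrays. This rule uses brightness and not the difference between treatments. It kept 1357 of 3048 probes, which represent 1116 of 2078 named genes, and 198 of the kept probes had no gene name. At the edge of the rule, the collagen crosslinking enzyme LOX and the damage-inducible GADD45A lay just inside, with differences of -0.06 and 0.04, and the nuclear import factor KPNA3 and the death receptor TNFRSF10B lay just outside, with -0.10 and 0.04.

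Cisplatin binds DNA and links neighbouring bases, and cells answer such lesions with checkpoint arrest, repair or apoptosis. The drug crosses an intact membrane slowly. Short strong pulses make the membrane permeable for a time, which raises drug uptake, a combination used against skin tumours as electrochemotherapy. The pulses also let ions such as calcium pass and call on membrane repair, which draws on lysosomes and annexins. Melanoma cells keep genes of the pigment cell lineage, among them the transcription factor MITF and melanosome proteins.

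The number of probes above background ranged from 1166 to 1765 in Cy5 and from 1465 to 1710 in Cy3. Pairs of arrays, compared over the log2 ratios of the 1357 probes, had correlations of r = 0.17 to r = 0.54. The electroporation arrays correlated with each other at r = 0.28, while the first electroporation array and the first cisplatin array reached r = 0.54; genes on an array share its hybridisation and are not independent. Melanocyte markers were above background for 6 of 6 measured genes, among them MITF, MLANA and TYRP1. Markers of other cell types were above it too, in 4 of 5 measured epithelium genes, 3 of 5 endothelium genes, 2 of 3 fibroblast genes and 2 of 3 leukocyte genes. The specificity of the probes for their genes was not tested. The labels do not say whether the replicates are separate cultures. The p-values cover how much these 5 arrays vary, and this variation may be only technical. In bulk RNA of 1 cell line, fewer cells with a transcript and less transcript per cell cannot be told apart.

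Differences between the treatments were small for most transcripts and smaller than their intervals. The median size of the difference over the 1357 probes was 0.081 on the log2 scale, against a median 95% confidence interval of 0.24 to either side. The larger differences pointed down: 14 probes lay below -0.5 and 0 above 0.5, and 50 lay below -0.3 against 18 above 0.3. The limma test across all 3048 probes called 0 of them (0%) at an adjusted p under 0.05. CD63 had the smallest adjusted p, 0.862. Without adjustment 124 probes (4.07%) had p under 0.05 by limma, a share no larger than that threshold. Of all probes, 55 were higher (1.8%) and 69 lower (2.26%), and of the 1357 above background 42 were higher (3.1%) and 55 lower (4.05%). On 100 members (7.37%) both electroporation arrays lay above all 3 cisplatin arrays, and on 131 (9.65%) both lay below. For a single gene, 2 against 3 arrays allow 10 regroupings, so an exact one-sided permutation test could not go below p = 0.1. The shares of members with groups apart, 7.37% above and 9.65% below, did not exceed that level. Groups that do not overlap therefore do not by themselves mark a gene out from an arbitrary grouping of the arrays. The values that follow are therefore descriptions of 5 arrays, and for none of the genes named did the difference pass the adjusted test.

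**Figure D1:**
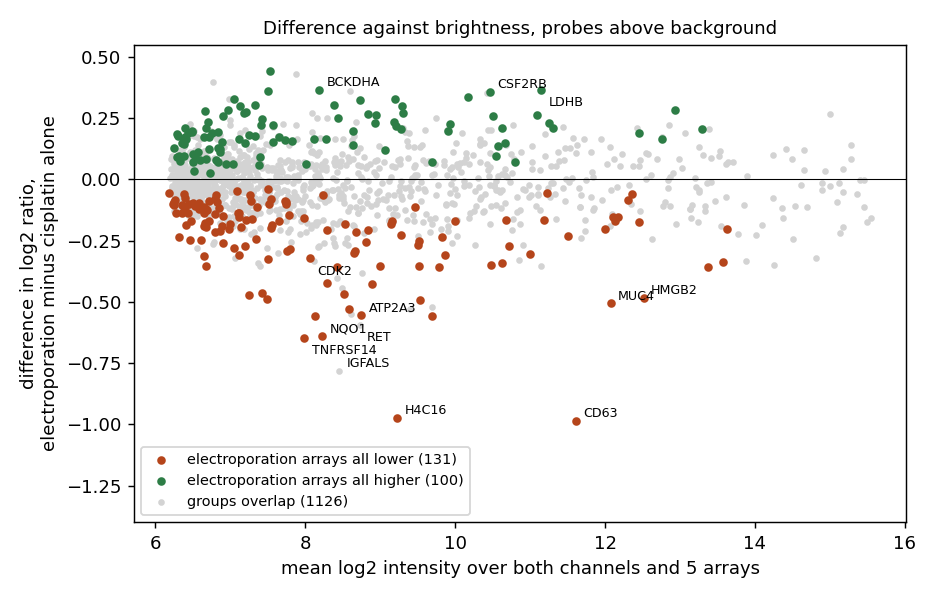
Difference in log2 ratio (electroporation minus cisplatin alone, vertical) against mean log2 intensity over both channels and 5 arrays (horizontal) for the 1357 probes above background, coloured by whether all electroporation arrays lay below (131) or above (100) all cisplatin arrays. The points reach farther below 0 than above it, with CD63 and H4C16 lowest, and the bright CD63 probe stands apart from others of its brightness.

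CD63 had the largest difference. It encodes a tetraspanin of lysosomes, melanosomes and exosomes. Its log2 ratios were -1.22 and -0.99 on the electroporation arrays, against -0.31, -0.10 and 0.06 on the cisplatin arrays. All electroporation values lay well below all cisplatin values. The difference was -0.99 (SE 0.13; 95% interval -1.30 to -0.67), which is 1.98-fold lower, with an unadjusted p of 0.000283 and an adjusted p of 0.862 by limma. Before normalization the median treated-cell signal of its spots was 1412 and 1568 scanner units on the electroporation arrays, against 2632, 4207 and 3267 on the cisplatin arrays. The untreated-cell signal on the same spots was 3969 and 4195 on the electroporation arrays, against 4859, 4671 and 3022 on the cisplatin arrays. The gap between groups was thus larger in the treated channel, and these unnormalized values overlapped in the untreated one. On the first electroporation array 1 of the 3 CD63 spots read 536 scanner units in the treated channel, against 1412 and 1758 for the others. A ratio difference without this spot was not computed. After quantile normalization the untreated log2 signal was 11.94 and 11.79 on the electroporation arrays, against 11.95, 12.18 and 12.15 on the cisplatin arrays, with no overlap but a small gap. CD82, a related tetraspanin known as a metastasis suppressor, showed no such gap: its difference was -0.03 (SE 0.11), and its values overlapped.

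Other proteins of the cell surface and membranes were among the 15 lowest genes. TNFRSF14, the herpesvirus entry mediator of the TNF receptor family, read -0.76 and -1.33 on the electroporation arrays, against -0.22, -0.57 and -0.40 on the cisplatin arrays. Every array was below 0 and the electroporation arrays were the lowest, with a difference of -0.65 (SE 0.19). The endoplasmic reticulum calcium pump ATP2A3 read -0.37 and -0.68 on the electroporation arrays, against -0.04, 0.16 and -0.03 on the cisplatin arrays. Its difference was -0.56 (SE 0.11; unadjusted p = 0.00302, adjusted p = 0.886, limma), but a dimmer second ATP2A3 probe gave -0.07 (SE 0.092) with overlapping groups. The endothelin receptor EDNRB, needed in pigment cell development, read -0.15 and -0.37 on the electroporation arrays, against 0.16, 0.03 and 0.44 on the cisplatin arrays. The groups lay on opposite sides of 0, with a difference of -0.47 (SE 0.13). The mucin MUC4 read -0.32 and -0.07 on the electroporation arrays, against 0.54, 0.39 and 0.004 on the cisplatin arrays. That difference of -0.51 (SE 0.17) was not shared by a dimmer MUC4 probe, at 0.11 (SE 0.11). EPHB6, an ephrin receptor without kinase activity, had a difference of -0.42 (SE 0.13).

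The lowest group also held enzymes and regulators inside the cell. NQO1, a quinone reductase of the antioxidant response, read -1.05 and -1.02 on the electroporation arrays, against -0.65, -0.60 and 0.06 on the cisplatin arrays. The third cisplatin array lay apart from the other two, and the difference was -0.64 (SE 0.22). The arginine methyltransferase PRMT1 read -0.61 and -0.39 on the electroporation arrays, against 0.13, -0.11 and -0.05 on the cisplatin arrays. The groups were separated by more than their own ranges, at -0.49 (SE 0.10; unadjusted p = 0.00325, adjusted p = 0.886, limma). On the first cisplatin array, the highest, 1 of the 3 PRMT1 spots had an unnormalized log2 ratio of 0.78, against -1.03 and -1.34. A difference without this spot was not computed. In all 22 alternatives of the closing section the groups stayed apart, with differences between -0.76 and -0.35. The serum- and glucocorticoid-regulated kinase SGK1 stood at -0.56 (SE 0.29), yet its second electroporation array at -0.64 lay next to the first cisplatin array at -0.61. SKP2, the F-box subunit of an SCF ubiquitin ligase, read -0.28 and -1.15 on the electroporation arrays, against -0.24, -0.14 and -0.09 on the cisplatin arrays. Its difference of -0.56 (SE 0.24) rested on the second electroporation array. The ubiquitin precursor gene UBB, the mitochondrial enzyme pyruvate carboxylase (PC) and the epidermal keratin KRT1 had differences of -0.49 (SE 0.20), -0.47 (SE 0.19) and -0.36 (SE 0.12). PC read -0.26 and -0.88 on the electroporation arrays, against 0.06, -0.22 and -0.14 on the cisplatin arrays. Without the second electroporation array the PC difference was -0.16, and its groups were apart in 15 of the 22 alternatives.

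Chromatin proteins supplied another pair. HMGB2, which bends DNA, read -0.06 and -0.05 on the electroporation arrays, against 0.14, 0.49 and 0.65 on the cisplatin arrays. The electroporation arrays were near an equal signal in both channels and each cisplatin array was above it, a difference of -0.48 (SE 0.15). The histone H4 gene H4C16 read -0.84 and -1.15 on the electroporation arrays, against -0.72, 0.001 and 0.66 on the cisplatin arrays. Its difference of -0.97 (SE 0.38) came with cisplatin arrays spread more widely than the gap between the groups. The dimmer H4C16 probes lay between -0.12 and 0.02.

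**Figure D2:**
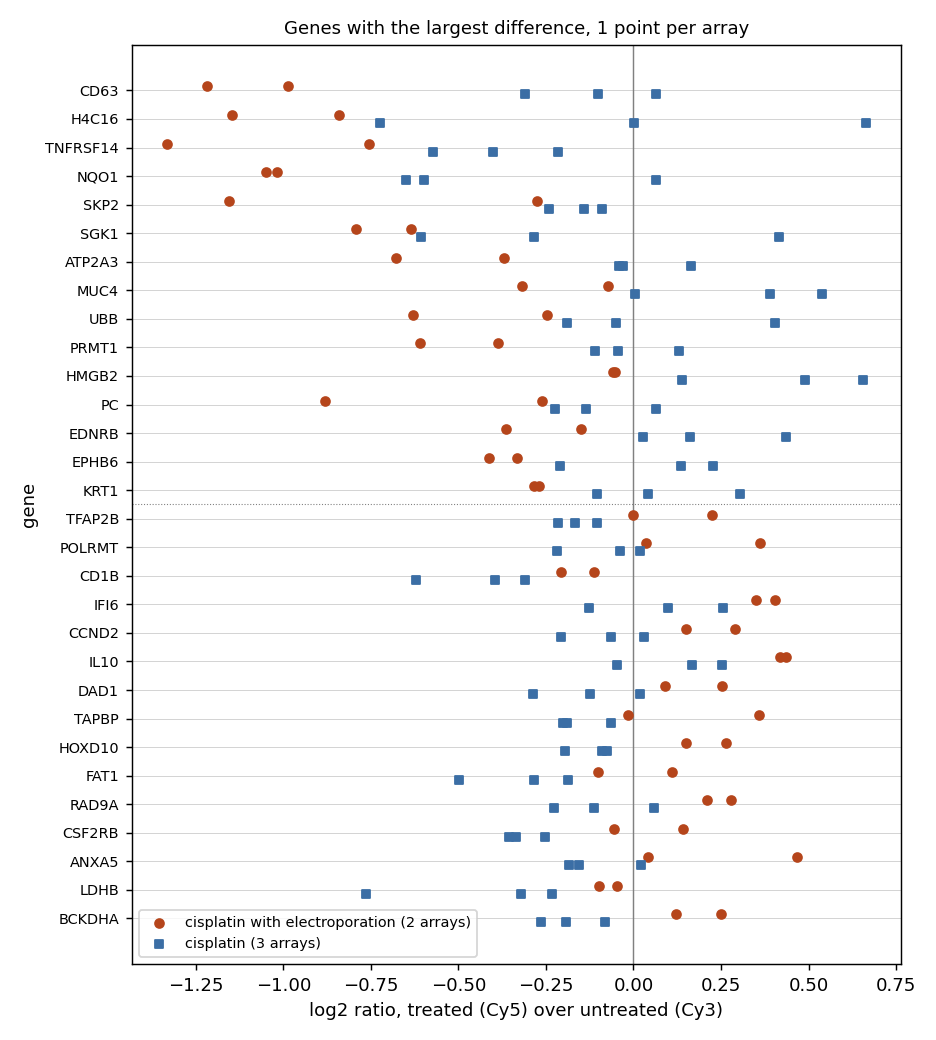
Log2 ratio of treated over untreated cells (horizontal) on each of the 5 arrays for the 15 genes with the lowest and the 15 with the highest difference among named genes whose groups did not overlap, from lowest (top) to highest (bottom), with the 2 electroporation arrays as circles and the 3 cisplatin arrays as squares. CD63 has a wide gap between circles and squares, whereas the groups of SKP2 and SGK1 nearly touch.

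The highest differences were smaller than the lowest. Among brightest probes with groups apart no named gene exceeded 0.37, while IL2, named after its value was seen, reached 0.43 with overlapping groups. BCKDHA, a subunit of the enzyme that breaks down branched-chain keto acids, read 0.12 and 0.25 on the electroporation arrays, against -0.26, -0.08 and -0.19 on the cisplatin arrays. The groups lay on opposite sides of 0, with a difference of 0.37 (SE 0.078; unadjusted p = 0.00362, adjusted p = 0.886, limma). LDHB, the heart form of a lactate dehydrogenase subunit, read -0.05 and -0.10 on the electroporation arrays, against -0.76, -0.23 and -0.32 on the cisplatin arrays. Every LDHB value was below 0, the first cisplatin array was by far the lowest, and the difference was 0.36 (SE 0.16). The annexin ANXA5, which binds phosphatidylserine and takes part in membrane repair, read 0.04 and 0.47 on the electroporation arrays, against -0.18, 0.02 and -0.16 on the cisplatin arrays. Its first electroporation array was close to the second cisplatin array, and the difference was 0.36 (SE 0.14). CSF2RB, the receptor chain shared by several blood cell cytokines, differed by 0.36 (SE 0.078; unadjusted p = 0.00405, adjusted p = 0.886, limma). RAD9A, part of the ring-shaped clamp that signals DNA damage, read 0.21 and 0.28 on the electroporation arrays, against -0.11, 0.06 and -0.23 on the cisplatin arrays. Its difference was 0.34 (SE 0.094), with electroporation values that were the more alike. On the first cisplatin array 1 of its 3 spots had an unnormalized log2 ratio of -1.5, against -0.38 and -0.29 for the others. The third cisplatin array had 1 spot at -0.62, against 0.05 and 0.003. A difference without these spots was not computed. The RAD9A groups were apart in 20 of the 22 alternatives of the closing section.

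The rest of the 15 highest genes lay between 0.27 and 0.33. They included the atypical cadherin FAT1 and the homeobox factor HOXD10, each at 0.33, with SE of 0.11 and 0.069. HOXD10 was above 0 on both electroporation arrays (0.27 and 0.15) and below 0 on all cisplatin arrays (-0.20, -0.09 and -0.07). TAPBP, which encodes the peptide-loading protein tapasin, stood at 0.32 (SE 0.12), and CD1B, which presents lipids, at 0.28 (SE 0.10). DAD1, a subunit of the enzyme that attaches sugars to proteins, gave 0.30 (SE 0.11), and its dimmer probe gave -0.02. The cytokine gene IL10, the interferon-induced IFI6 and the cyclin CCND2 each gave 0.30, with SE of 0.096, 0.12 and 0.089. The mitochondrial RNA polymerase POLRMT and the transcription factor TFAP2B gave 0.28 (SE 0.12) and 0.27 (SE 0.083). Dim probes such as those of POLRMT and HOXD10 moved most with the background correction, POLRMT to between 0.49 and 0.72 and HOXD10 to between 0.47 and 0.60 when no correction, no offset or plain subtraction was used.

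The sign of each ratio sets these differences against 0, an equal signal in both channels after normalization. Treated RNA carried Cy5 on every array, so a dye preference of a probe does not cancel in a single ratio. A sign is therefore not by itself a change from untreated cells. Among named genes whose groups did not overlap, 102 were lower with electroporation. For 60 of them the electroporation mean was below 0 and the cisplatin mean above 0, for 31 both means were below 0, and for 11 both were above. Of the 82 that were higher, 54 had an electroporation mean above 0 and a cisplatin mean below it, 17 had both above and 11 had both below. Single arrays all lay on opposite sides of 0 for 42 of 1116 genes (3.76%). TNFRSF14 and NQO1 are examples in which the electroporation ratio was farther below 0 than an already negative cisplatin mean. HMGB2 and the mitotic kinase AURKB are examples of the other kind. AURKB read 0.13 and -0.15 on the electroporation arrays, against 0.22, 0.30 and 0.47 on the cisplatin arrays, so its cisplatin arrays were all above 0 and its electroporation arrays straddled it.

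A lower ratio can stem from less signal in the treated channel or from more in the untreated channel. The channels were therefore also compared alone, after quantile normalization across arrays. Since the treated channel is part of the ratio, most genes share its direction: 925 of 1357 members did, and 198 of the 231 whose groups did not overlap in the ratio. Of the 30 genes with the lowest or highest differences 27 did. For 13 of the 30 the groups were apart there in the same direction, as for 107 of the 231. Among all 1357 members, 334 (24.6%) had groups apart there in either direction. The 30 and the 231 were chosen by the ratio, of which this channel is a part, so these counts do not test them. Across all probes the treated channel alone had 196 with an unadjusted p under 0.05 (6.43%) and the untreated channel 195 (6.4%). Both channels had 0 after adjustment by limma, with smallest adjusted p of 0.497 in Cy5 and 0.484 in Cy3. The signal of the untreated channel, whose RNA received neither treatment, thus differed between the groups of arrays at this threshold in about as many probes as the treated signal did. Whether the RNA or the spots differed was not tested.

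For CD63 the treated channel alone differed by -1.22 (SE 0.18) and the untreated channel by -0.23 (SE 0.096). With the median of spots, which limits the weight of its weak spot, these values were -1.025 and -0.235. TNFRSF14 and NQO1 behaved alike, with -0.61 and -0.68 in the treated channel and -0.04 and -0.08 in the untreated channel. CDK2, the S-phase cyclin-dependent kinase, had -0.27 in the treated channel and -0.01 in the untreated one. MITF was different, at -1.28 in the treated and -1.07 in the untreated channel. Its treated signal was 142 and 230 scanner units on the electroporation arrays, against 814, 917 and 249 on the cisplatin arrays. Its untreated signal was 234 and 363 on the electroporation arrays, against 1035, 983 and 171 on the cisplatin arrays. Both channels of MITF were thus dim on the same 3 arrays. HMGB2 likewise had -1.17 in the treated and -0.70 in the untreated channel. The treated log2 signal of H4C16 overlapped between groups, at 8.29 and 8.22 on the electroporation arrays, against 8.17, 9.37 and 10.45 on the cisplatin arrays. MUC4 differed by 1.02 in the treated and 1.48 in the untreated channel, but 1 of its 3 spots on the first cisplatin array read 108 and 64 scanner units in Cy5 and Cy3, far below the other spots. With the median of spots, chosen after the data were seen, the values were 0.54 and 1.23. MUC4 had its gap in the untreated channel, whose median spot signal was 10026 and 10718 scanner units on the electroporation arrays, against 2807, 3537 and 5408 on the cisplatin arrays. The treated signal of MUC4 overlapped between groups, at 4397 and 8527 on the electroporation arrays, against 2897, 4712 and 5691 on the cisplatin arrays. For ANXA5 the untreated channel differed by -0.53 and the treated one by -0.12, so the positive difference in ratio came with less signal in both. LDHB had -0.32 in the untreated and 0.04 in the treated channel, DAD1 -0.25 and 0.10, and CSF2RB -0.18 and 0.16. These 4 of the 15 highest genes differed more in the untreated channel, as did 3 of the 15 lowest. TGFBR2, outside the 15 highest, had -0.25 and 0.01. On the first cisplatin array 1 of the 3 ATP2A3 spots used held no signal in either channel. Without it the ratio difference of ATP2A3 was -0.57, made up of -0.17 in the treated and 0.32 in the untreated channel.

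**Figure D3:**
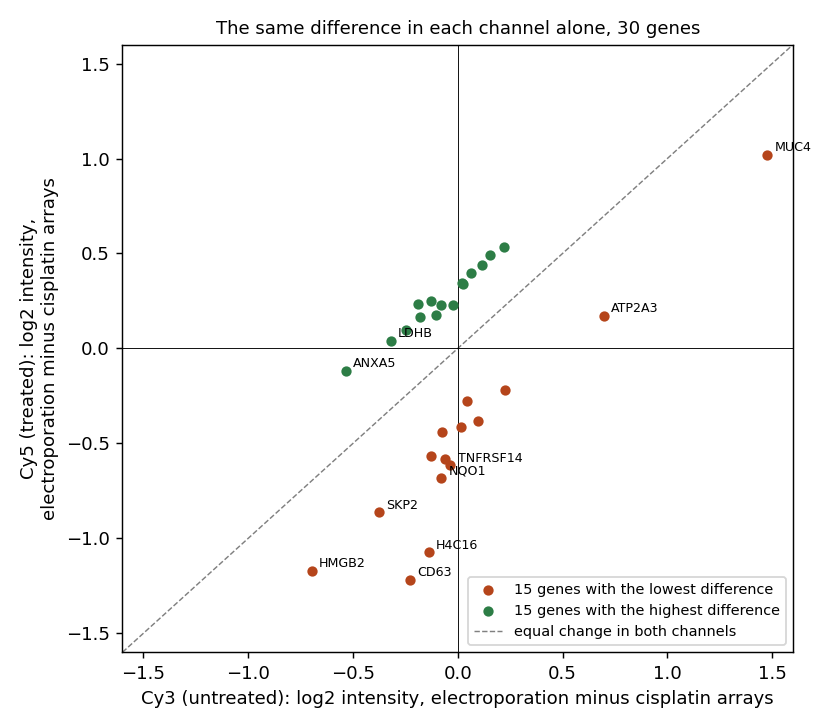
Difference in log2 intensity between electroporation and cisplatin arrays in the treated channel (Cy5, vertical) against the untreated channel (Cy3, horizontal) for the 15 genes with the lowest and the 15 with the highest difference in ratio, 1 point per gene and all spots used. Points near the dashed diagonal differ as much in both channels; CD63, NQO1 and TNFRSF14 lie far below it, with untreated values of -0.23, -0.08 and -0.04, whereas MUC4 and ATP2A3 have positive untreated values.

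**Figure D4:**
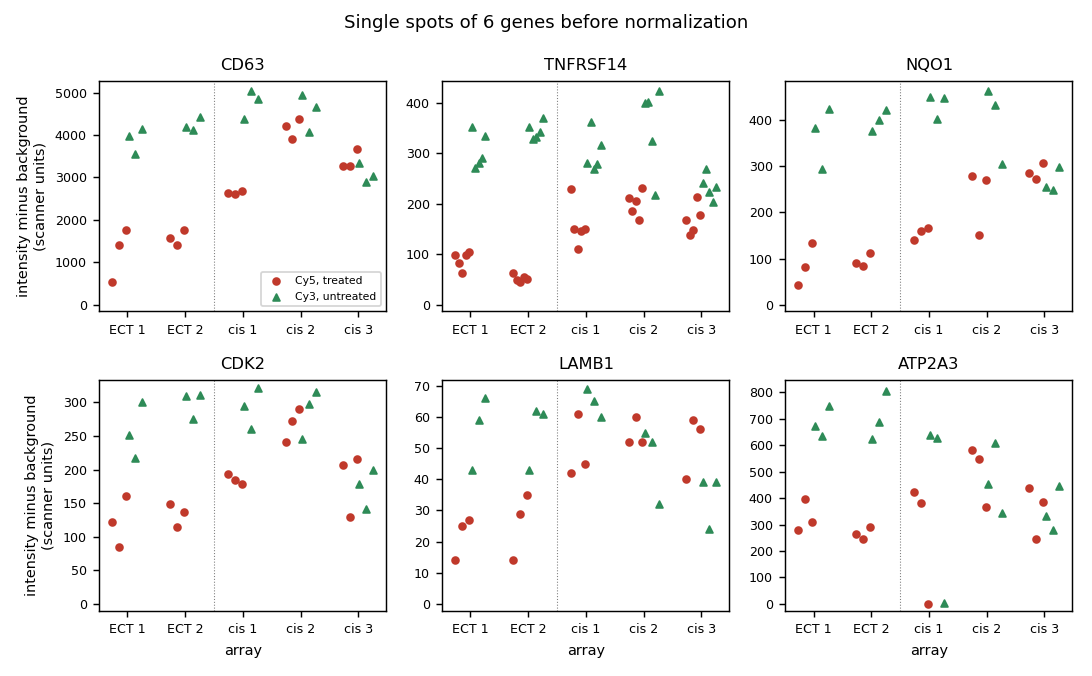
Intensity minus local background in scanner units (vertical) for every spot used of 6 genes on the 2 electroporation arrays (left of the dotted line) and 3 cisplatin arrays (right), with treated-cell Cy5 as circles and untreated-cell Cy3 as triangles; each panel has its own scale and values below 0 are drawn at 0. Treated CD63 spots on the electroporation arrays all lie below those on the cisplatin arrays, and 1 ATP2A3 spot of the first cisplatin array lies near 0 in both channels.

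Genes were also grouped by function, with 1 probe per gene, the brightest. Over all 1116 named genes above background the median difference was -0.01, and 494 were above and 622 below 0. Pigment cell lineage genes had the lowest median of the function lists with at least 5 genes, at -0.26 over 9 genes, with 7 below 0. No member passed the adjusted test, and 3 were lower with an unadjusted p under 0.05 and groups that did not overlap: EDNRB, TYRP1 and MITF. Over all 1116 genes, 42 were lower at that p and 102 were lower without overlap. The pigment enzyme TYRP1 read 0.05 and -0.15 on the electroporation arrays, against 0.31, 0.18 and 0.18 on the cisplatin arrays, a difference of -0.27 (SE 0.084). MITF read -0.11 and -0.01 on the electroporation arrays, against 0.19, 0.06 and 0.34 on the cisplatin arrays, a difference of -0.26 (SE 0.093). In both genes the cisplatin arrays were above 0 and the electroporation arrays were near it. The melanoma antigen MLANA at -0.28 (SE 0.15) and the calcium-binding S100B at -0.33 (SE 0.24) overlapped, with the second electroporation array lowest in each. All 6 melanocyte markers were below 0, with a median of -0.26, and all 6 are also on the pigment list. Among markers of other cell types, 4 of 4 epithelium and 3 of 3 endothelium genes were below 0 too, with medians of -0.09 and -0.02. So were 2 of 2 leukocyte and 1 of 2 fibroblast genes, with medians of -0.06 and -0.03. The part of these other markers in the pigment result was not tested. The median of the pigment list was -0.11 and -0.19 on the electroporation arrays, against -0.07, 0.03 and 0.17 on the cisplatin arrays.

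Reference genes of glycolysis, the cytoskeleton and other basic functions had the next lowest median, -0.14 over 12 genes, with 9 below 0 and 0 past the adjusted test. The lactate dehydrogenase subunit LDHA read -0.35 and -0.57 on the electroporation arrays, against -0.23, -0.06 and -0.03 on the cisplatin arrays, a difference of -0.36 (SE 0.097). The other subunit gene, LDHB, had the highest difference of the list, but its treated channel alone differed by only 0.04. The cyclophilin PPIA stood at -0.31 (SE 0.13), the tubulin TUBA1B at -0.28 (SE 0.13), GAPDH at -0.17 (SE 0.15) and ACTB at -0.12 (SE 0.20), the last 3 with overlapping groups. On the first and on the second cisplatin array 2 of the 5 ACTB spots held no signal, and without them its difference was -0.065. The list median of the first electroporation array equalled that of the first cisplatin array, at -0.20.

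Cell cycle genes went both ways around a median of -0.05 over 22 genes, with 15 below 0. CDK2 read -0.27 and -0.33 on the electroporation arrays, against 0.03, 0.002 and 0.04 on the cisplatin arrays. The arrays of each group lay within 0.1 of each other, and the difference was -0.32 (SE 0.053; unadjusted p = 0.00102, adjusted p = 0.886, limma). AURKB stood at -0.34 (SE 0.11) and the mitotic kinase PLK1 at -0.52 (SE 0.31). PLK1 overlapped because its first electroporation array, at 0.02, was level with the cisplatin arrays and its second was at -1.09. The cyclins CCNB1 and CCNF stood at -0.15 each, with SE of 0.090 and 0.079, and the phosphatase CDC25C at -0.03 (SE 0.15). CCND2 was the highest of the list. Among 11 genes of the retinoblastoma family, E2F factors and cell cycle inhibitors (median -0.04), the inhibitor CDKN1B differed by 0.19 (SE 0.071) without overlap, E2F3 by -0.25 (SE 0.12) and E2F1 by -0.04 (SE 0.097). RBL2 stood at -0.16 (SE 0.18), from a probe that reached a raw signal of 63815, close to the 65535 that was the highest raw signal on any array.

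Genes of DNA damage and death had small differences. Over 16 DNA repair genes the median was 0.03, with RAD9A highest and the replication protein RPA3 lowest at -0.25 (SE 0.093). The end-joining ligase LIG4 stood at -0.11 (SE 0.15) and the end-joining kinase PRKDC at 0.09 (SE 0.066). Over 9 p53 target genes the median was 0.02. The cyclin CCNG2 was the highest at 0.15 (SE 0.068) and the quinone oxidoreductase TP53I3 stood at -0.11 (SE 0.35) with widely spread arrays. The p53 targets CDKN1A and BAX were not above background on all arrays, CDKN1A on 0 arrays and BAX on 1. Of 9 BCL2 family and mitochondrial death genes 7 were above 0, with a median of 0.05, where 494 of all 1116 genes were above 0 and 82 were higher without overlap. None of the 9 had an unadjusted p under 0.05. The groups did not overlap for the death-promoting BCL2L11 at 0.15 (SE 0.063), BNIP3 at 0.17 (SE 0.072) and BNIP2 at 0.12 (SE 0.063). The BNIP3 probe barely met the background rule, at 2.08 standard deviations on its weakest array. On the second electroporation array and on the first cisplatin array, 1 of its 3 spots was not above background. A second BCL2L11 probe, not above background on all arrays, gave 0.07 with overlapping groups. BCL2L11 read 0.09 and 0.15 on the electroporation arrays, against -0.05, -0.08 and 0.05 on the cisplatin arrays. Over 12 caspases, inhibitors and survival genes the median was -0.05 and 0 genes had groups apart. Over 21 genes of the TNF family and NF-kB it was -0.04, with TNFRSF14 far below the others. The OX40 ligand TNFSF4 and the NF-kB inhibitor TNFAIP3 stood at -0.11 (SE 0.21) and -0.06 (SE 0.057).

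Stress and detoxification genes gave a median of -0.03 over 12 heat shock and integrated stress genes and -0.05 over 13 redox and detoxification genes. The HSPA1B heat shock gene was measured by probes that disagreed. Its brighter probe differed by -0.22 (SE 0.12) with overlapping groups. Its dimmer probe read 0.50 and 0.65 on the electroporation arrays, against 0.22, 0.20 and -0.03 on the cisplatin arrays, a difference of 0.44 (SE 0.098), the highest of all 1357 probes. The stress transcription factor ATF4 stood at -0.02 (SE 0.12). Beside NQO1, the superoxide dismutase SOD1 differed by -0.20 (SE 0.065) without overlap and the cytochrome CYP2A7 by -0.44 (SE 0.18) with overlap. Among 10 immediate early genes and stress kinases (median -0.02) the phosphatase DUSP5 read -0.07 and -0.27 on the electroporation arrays, against 0.23, 0.04 and 0.11 on the cisplatin arrays.

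Genes of membrane handling, for which pulses are of direct interest, showed no common direction. The median was -0.03 over 10 genes of membrane repair, lysosome and endocytosis and -0.04 over 7 ion pumps, channels and calcium genes. CD63 and ANXA5 were the extremes of the first list, and the lysosomal protease CTSL differed by -0.15 (SE 0.067) without overlap. ATP2A3 stood alone in the second, since the other members lay between -0.17, for TTYH1, which is nearly as bright as RBL2, and 0.08, for the calcium-activated protease CAPN1. Of the platinum transport genes 2 were above background, the vault protein MVP at -0.33 (SE 0.24) and the export pump ABCC2 at -0.06 (SE 0.055), both with overlap.

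Adhesion, matrix and invasion genes bear on how cells attach and spread. The laminin chain LAMB1 read -0.18 and -0.03 on the electroporation arrays, against 0.17, 0.19 and 0.26 on the cisplatin arrays. The groups lay on opposite sides of 0, at -0.31 (SE 0.069; unadjusted p = 0.00420, adjusted p = 0.886, limma), from a dim probe, whose ratios the background offset draws toward 0: under the same 3 alternatives LAMB1 lay between -0.79 and -0.56. LAMB3 also stood at -0.31 (SE 0.13) without overlap, whereas the collagen COL6A3 stood at 0.18 (SE 0.078) and the matrix glycoprotein SPARC at 0.09 (SE 0.088). The medians were 0.02 for 10 laminins and other matrix proteins, -0.03 for 11 integrin chains, -0.07 for 11 cadherins and other adhesion molecules and -0.01 for 10 metastasis genes. Matrix proteases and their inhibitors had the highest median, 0.07 over 8 genes. The stromelysin MMP10 differed by 0.18 (SE 0.071) without overlap, the gelatinase MMP2 by 0.25 (SE 0.14) and its inhibitor TIMP2 by -0.26 (SE 0.28). ITGB1 stood at -0.40 (SE 0.24), the neural cadherin CDH2 at -0.10 (SE 0.14) and L1CAM at -0.13 (SE 0.098), all with overlap. The hyaluronan receptor CD44 gave -0.04 (SE 0.072) by its brightest probe and 0.19 and 0.17 on dimmer ones.

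The remaining lists lay near the overall median: 0.01 for 10 angiogenesis genes, 0.02 for 21 growth factor receptors and signalling genes, 0.01 for 12 ribosomal proteins and translation factors, -0.06 for 11 ubiquitin ligase and proteasome genes and -0.07 for 9 chromatin proteins and histones. The elongation factor EEF1A1 differed by -0.23 (SE 0.24) and the ribosomal protein RPL31 by -0.02 (SE 0.17). The endothelial receptor gene TIE1 stood at -0.29 (SE 0.099) without overlap, and the receptor TGFBR2 at 0.26 (SE 0.088) without overlap.

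**Figure D5:**
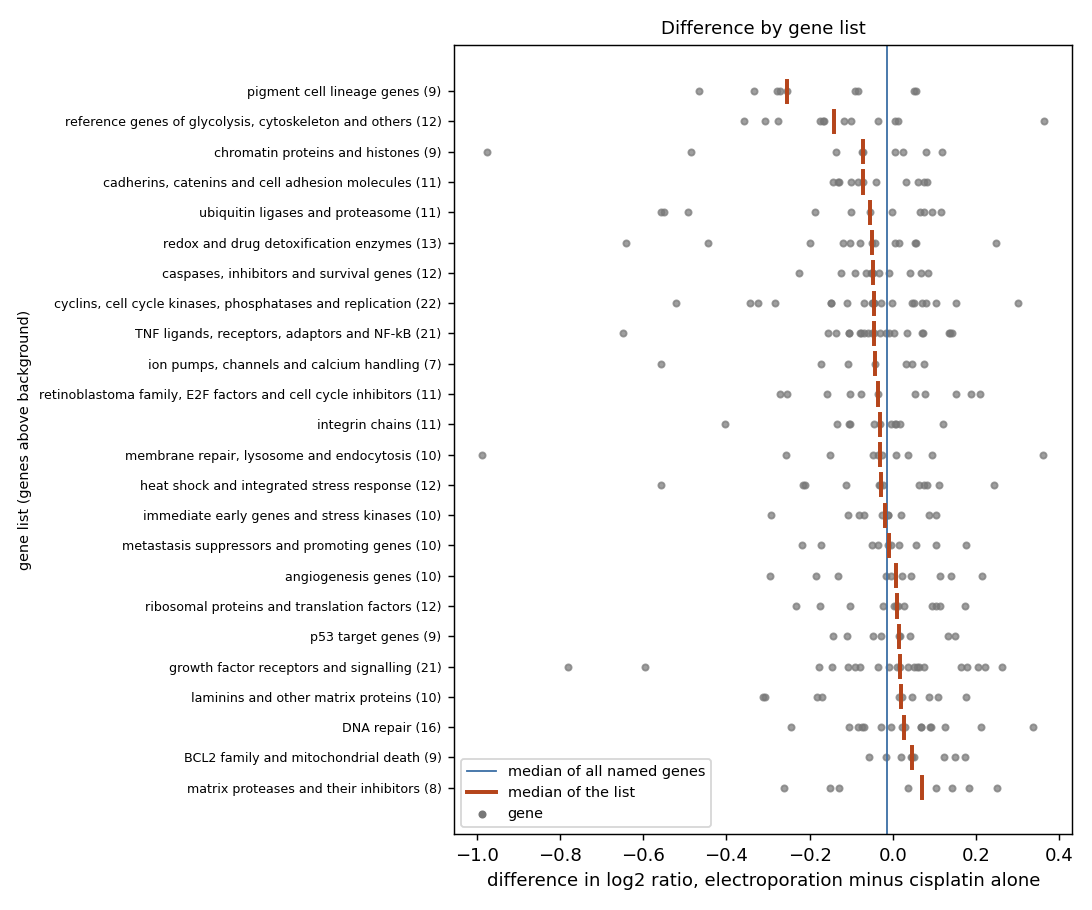
Difference in log2 ratio (electroporation minus cisplatin alone, horizontal) of every gene above background in the 24 function lists with at least 5 such genes, 1 point per gene by its brightest probe, with the list median as a bar and the median of all named genes as a line. Pigment cell lineage genes have the lowest median at -0.26 and matrix proteases the highest at 0.07, and single genes such as CD63, H4C16 and IGFALS lie far from their lists.

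Several large mean differences came from 1 of the electroporation arrays. The receptor tyrosine kinase RET read -0.44 and -1.77 on the electroporation arrays, against -0.23, -0.43 and -0.87 on the cisplatin arrays. The ubiquitin ligase WWP1 read -0.05 and -1.58 on the electroporation arrays, against -0.05, -0.13 and -0.61 on the cisplatin arrays. The growth factor carrier IGFALS read -0.41 and -1.30 on the electroporation arrays, against -0.58, 0.35 and 0.02 on the cisplatin arrays. In all 3 genes the first electroporation array was at the level of the cisplatin arrays, and the groups overlapped although the mean differences were -0.60 (SE 0.40), -0.55 (SE 0.44) and -0.78 (SE 0.35). The ectonucleotidase ENPP1 followed the same course, at -0.53 (SE 0.27). Over all members, the electroporation arrays differed from each other by more than 0.5 on 76 of 1357 probes.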

How the data were processed

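Per the file headers, each deposited scanner file holds raw foreground and background intensity per spot in both channels, without normalization. The authors' deposited value table gives 1 log2 ratio for each probe, after a normalization not given in the sources used here, and served as an alternative. The second channel was read as Cy5 from the order of channels in the labels, since no file header names the dye of a channel. The authors' log2 ratios rose with second over first channel (r from 0.812 to 0.889), which does not identify the dye.

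The first 3 listed spots of 4-spot probes, 5 of 8 and 8 of 12 were used, since the last listed spot deviated on 125 of 2900 such probes of the second electroporation array. Background was corrected with limma 3.58.1 in R 4.3.3 (normexp, offset 50, which draws dim ratios toward 0), followed by loess within arrays (span 0.3) and the mean over spots. A probe was above background if at least 0.5 of its spots exceeded it by 2 SD. The difference was tested with limma's moderated test over the 5 arrays (two-sided, 3 residual degrees of freedom, prior 2.84), adjusted by Benjamini and Hochberg over 3048 probes. The number of arrays limits the precision.

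Members, gene lists and tests were chosen with earlier results of these data known. Named genes were those past the test (0), the 15 lowest and 15 highest named members with groups apart, up to 4 per list and 50 fixed genes, of which the text gives a selection. A gene was given by its brightest probe, and others where they differed. The procedure was tested on simulated data in which the planted changes were larger than any ratio difference found with the main settings. That run therefore did not assess changes as small as those described here. Alternatives are in the closing section.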

Additional observations from a re-analysis of the deposited data

Results flagged for a closer look

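For 13 of the named genes the electroporation arrays all lay on one side of 0 and the cisplatin arrays all on the other; none of these differences passed limma's test after adjustment, and 42 of 1116 genes had this pattern. Lower with electroporation were MUC4 at -0.51, HMGB2 at -0.48, EDNRB at -0.47, CDK2 at -0.32, LAMB1 at -0.31, DUSP5 at -0.29, MITF at -0.26, SOD1 at -0.20 and CTSL at -0.15. Higher were BCKDHA at 0.37, HOXD10 at 0.33, CDKN1B at 0.19 and COL6A3 at 0.18. For MUC4, MITF, HMGB2 and COL6A3 the untreated channel also differed between the groups of arrays, by 1.48, -1.07, -0.70 and -0.60 (1.23, -1.02, -0.42 and -0.59 with the median of spots, which limits the weight of the weak MUC4 spot).

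The last listed spots were not used. On the second electroporation array 125 of 2900 probes with 4 spots had that spot over 1 log2 unit from the median of the probe, against 0 to 6 for any listed spot of the first electroporation array and the cisplatin arrays.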

How the results depend on the processing

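The adjusted test called 0 probes in each of 22 alternatives; the smallest adjusted p was 0.0689, that of CD63 with the replicate number as a block. The count at an unadjusted p under 0.05, 124 as reported, was 211 with median centring, 55 and 47 when only probes above background in 1 or in both channels were tested, 58 in the authors' table, 196 in the treated channel alone and 199 with the replicate block; it ranged from 110 to 200 with 1 array left out, and the 200 came without the first electroporation array. Members with groups apart, 231 as reported, ranged from 389 to 734 with 1 array left out, since fewer arrays separate more easily. The treated channel's count of 196 ranged from 116, without the second cisplatin array, to 405, without the third. With 1 electroporation array left, it was assumed to vary like the cisplatin arrays. Of 25 lists with at least 5 genes, melanocyte markers included, 17 had a median below 0, against 11 in the authors' table; the pigment list stayed between -0.41 and -0.084. Same-numbered arrays of the groups deviated together with r = 0.233 over 1357 probes, but the numbers are only labels, so no pairing was assumed. CD63 stayed between -1.22 and -0.77 and its groups apart in all 22. Of 57 named genes with groups apart, 6 differences turned round: BCL2L11 (-0.041) and TOP2B (-0.047) with median centring, and ANXA5 (-0.12), ATP2A3 (0.17), COL6A3 (-0.37) and MUC4 (1.02) in the treated channel alone; beyond the ATP2A3 spot and the untreated-channel values given above, the cause was not tested. Of 75 named genes with overlapping groups, 44 changed sign in at least 1 alternative; without the second electroporation array PLK1 read 0.037, RET 0.074, WWP1 0.21, S100B 0.089, TIMP2 0.25, GAPDH 0.040 and TP53I3 0.37. Without background correction, without offset or with plain subtraction, MMP10 lay between 0.36 and 0.74 and CCNG2 between 0.33 and 0.59. Leaving out failed spots, chosen after the data were seen, gave 124 again.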
